A study of Mus musculus with 2 samples.

Results

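Type 1 conventional dendritic cells (cDC1) were picked out of the CD45+ cells of the mouse RPE/choroid, the pigment epithelium of the retina with the vascular layer behind it, by their own transcripts. A cell was a member when it held at least 2 UMIs (unique molecular identifiers, 1 for each captured transcript) of Xcr1 and Clec9a together, at least 10 UMIs of the MHC class II gene H2-Aa, and no UMI of the T cell gene Cd3e or the B cell gene Cd79a. Of 7400 cells with at least 1000 UMIs, at least 300 genes and under 10% mitochondrial UMIs, 120 were members. The KO library gave 50 of its 3982 cells and the flox library gave 70 of its 3418 cells.

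The study has 2 libraries, 1 for each genotype. The KO mice carry the genotype label IL-17RA CKO, and the control mice carry the label IL-17ra fl; the labels used here name no Cre driver and no deleted exon, so they do not say which cells had lost the receptor for interleukin-17. All mice of both groups had received NaIO3, an oxidant that is toxic to the retinal pigment epithelium, at 20 mg/kg into the peritoneum, so neither library is from an uninjured eye. No source used here gives the age, the strain or the time after injection. Viable CD45+ cells had been sorted from tissue digested with collagenase and dispase, and were sequenced by the 10x Genomics 3' method. The labels give the version 2 kit for both libraries, but the flox matrix lists more barcodes than the barcode set of that kit holds, so the kits may differ, and a difference in kit cannot be told apart from genotype. The reads were also counted with different versions of Cell Ranger, 7.0.1 for KO and 4 for flox. Any effect of the version on a KO against flox ratio cannot be told apart from genotype either.

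With 1 library a genotype there was no replicate, so no test of a genotype difference was possible. The intervals given are 95% intervals for counting error only (Clopper-Pearson for a share, exact conditional binomial for a ratio), and they say nothing of the spread between mice. Both libraries held cells of both sexes and so came from more than 1 mouse, in unequal proportion. Of the kept cells, 39.3% in the KO library and 65.8% in the flox library had a UMI of Xist and none of 4 Y-linked genes (called female here), and 34.6% in KO and 15.7% in flox had the reverse (called male). The deposited KO matrix held 4096 barcodes, each with 500 UMIs or more, and the flox matrix listed 1002803 barcodes, empty droplets included. The kept cells had medians of 7714 UMIs in KO and 8744 UMIs in flox. The libraries shared 3 barcodes among their kept cells, and no member was among them.

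cDC1 are the dendritic cells that take up dying cells and present their antigens to CD8+ T cells on MHC class I, a process called cross-presentation. Their development depends on the transcription factors IRF8 and BATF3. XCR1 is a chemokine receptor that brings them to XCL1-producing T and NK cells, CLEC9A (DNGR-1) binds actin filaments exposed by necrotic cells, and TLR3 is an endosomal receptor for double-stranded RNA. The other main conventional lineage, cDC2, relies more on IRF4, presents chiefly on MHC class II and carries SIRPα and, in many tissues, the lectins CD209a and CLEC10A.

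The genes of the rule and 3 further markers checked the label. On GRCm38, Xcr1 lies on the minus strand at chr9:123852315-123862029 and Clec9a on the plus strand at chr6:129408862-129424763. The 3 markers are Tlr3 (chr8:45395665-45411080, minus strand), Snx22 (chr9:66065176-66069719, minus strand), which encodes a sorting nexin, and Naaa (chr5:92257659-92278170, minus strand), which encodes a lysosomal acid amidase. Among members, Clec9a stood at 181 CPM (UMIs of the gene over all UMIs of the cells, on the usual CPM scale) in KO and 264 CPM in flox, Xcr1 at 94.9 CPM in KO and 178 CPM in flox. Clec9a was found in 50 of 50 KO members and 68 of 70 flox members, Xcr1 in 17 of 50 KO members and 41 of 70 flox members. The rule chose the cells by these transcripts, so those values are a description.

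The label did not hold for all members. Tlr3 or Snx22 was detected in 27 of 50 KO members (54%, interval 39.3% to 68.2%) and in 54 of 70 flox members (77.1%, interval 65.6% to 86.3%). These are called Tlr3/Snx22-positive members below, a split made after the values were seen. Every one of the 17 KO members with Xcr1 was Tlr3/Snx22-positive, as were 39 of the 41 flox members with Xcr1. The third marker, which defined neither the rule nor the split, divided the members in the same way. Naaa stood at 568 CPM in the positive members of KO and 695 CPM in those of flox, against 90.9 CPM in the negative members of KO and 70.3 CPM in those of flox. The negative members were thus at the Naaa level of the comparison cDC2, which had 96.3 CPM in KO and 89.7 CPM in flox. The positive members were also deeper, with medians of 27060 UMIs in KO and 24928 UMIs in flox against 18070 UMIs in the negative members of KO and 19029 UMIs in those of flox; the part of depth in the split was not tested.

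The 120 members fell into 5 classes. Positive members with Xcr1 numbered 17 in KO and 39 in flox, and had high levels of cDC1 genes. Irf8 stood at 1356 CPM in KO and 1233 CPM in flox, Batf3 at 220.3 CPM in KO and 218 CPM in flox, and Id2, an inhibitor of E proteins that these cells need, at 869.8 CPM in KO and 892 CPM in flox. Cadm1, an adhesion molecule of cDC1, stood at 93.9 CPM in KO and 146 CPM in flox. Positive members without Xcr1 numbered 10 in KO and 15 in flox. Batf3 was at 229.7 CPM in these cells in KO and 206 CPM in flox, close to the cells with Xcr1, whereas Cadm1 was at 3.7 CPM in KO and 5.81 CPM in flox and the integrin gene Itgae at 88.9 CPM in KO and 52.3 CPM in flox. In the cells with Xcr1, Itgae stood at 192 CPM in KO and 173 CPM in flox. Lyz2, a lysozyme gene of myeloid cells, was the reverse, at 563 CPM in KO and 694 CPM in flox without Xcr1, and at 241 CPM in KO and 193 CPM in flox with it. Without Xcr1, 1 cell held 62 of the 152 KO UMIs, and 1 cell held 129 of the 239 flox UMIs. The medians were 10 UMIs a cell in KO and 5 in flox without Xcr1, against 6 in KO and 3 in flox with it.

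A class of negative members had 10 or more UMIs of Siglech, a lectin of plasmacytoid dendritic cells, the main producers of type I interferon. It numbered 7 cells in KO and 3 in flox. Siglech stood at 3153 CPM in the 7 KO cells and 1818 CPM in the 3 flox cells, and Tcf4, the factor that sets plasmacytoid fate, at 2801 CPM in KO and 1916 CPM in flox. Irf8 was also high in these cells, at 1892 CPM in KO and 1733 CPM in flox, while Batf3 was at 0 CPM in KO and 28.2 CPM in flox. Their H2-Aa was low, at 1957 CPM in KO and 761 CPM in flox. The rule therefore took in cells with a plasmacytoid profile through Clec9a. Cells of this Siglech class were 14% of KO members and 4.29% of flox members. The Siglech cut may miss such cells: in UMIs per 10000, plasmacytoid markers summed to 82.5 in 1 flox cell of the Cd209a class below. The lowest flox cell of the Siglech class had 78.2. In KO the highest sum in the Cd209a class was 49.5, against at least 86.2 in the Siglech class. All 182 Lyz2 UMIs of the flox Siglech class were in 1 of its 3 cells.

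The other negative members were mixed. A class with 2 or more UMIs of Cd209a and Clec10a numbered 10 cells in KO and 9 in flox; Cd209a stood there at 730.0 CPM in KO and 519 CPM in flox, with Irf8 at 211 CPM in KO and 99.2 CPM in flox. Zeb2, a transcription factor of cDC2 and monocytes, stood at 676 CPM in KO and 741 CPM in flox. The remaining 6 KO and 4 flox members had Lyz2 at 3691 CPM in KO and 18652 CPM in flox; 419 of the 460 KO UMIs were in 1 cell, and the medians were 2 UMIs a cell in KO and 311.5 in flox. In each cell, 25 cDC1 identity genes were summed per 10000 UMIs of that cell; the sum contains Tlr3 and Snx22, which made the split. It ran from 53.5 to 98.5 with a median of 68.8 in KO members with Xcr1 and from 35.0 to 118 with a median of 80.7 in flox members with Xcr1. In the Cd209a class its median was 6.38 in KO and 7.17 in flox. Among the remaining members its median was 13.2 in KO and 6.08 in flox, with highest values of 37.9 in KO and 56.0 in flox. The highest flox value lies within the range of flox members with Xcr1, so the split can leave out cells with high identity sums.

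**Figure D1:**
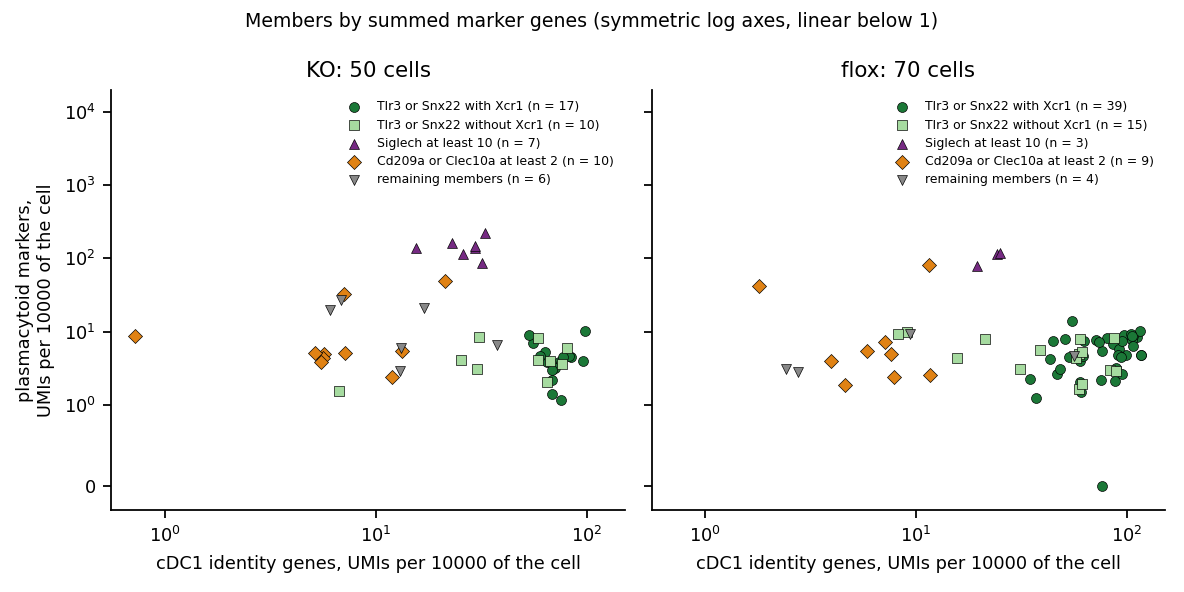
Each point is a member, placed by its summed cDC1 identity genes (25 genes, horizontal) and its summed plasmacytoid markers (8 genes, vertical), both in UMIs per 10000 UMIs of the cell on symmetric log axes, KO left and flox right; colour and shape give the 5 classes, with their numbers in the legend. The Tlr3/Snx22-positive members lie mostly at the lower right and the Siglech class (7 KO and 3 flox cells) at the top, with plasmacytoid sums from 86.2 to 225 in KO and from 78.2 to 119 in flox.

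Some positive members had markers of other cell types. The cDC2 criterion of 2 or more UMIs of Cd209a and Clec10a was met by 2 of 27 positive members in KO and 5 of 54 in flox. Among positive members without Xcr1, 1 KO cell had summed cDC2 markers of 129 UMIs per 10000 and summed cDC1 identity genes of 6.72. In flox, 3 such cells had cDC2 sums of 108, 87.0 and 93.1 and identity sums of 21.4, 9.12 and 8.22. The 8 plasmacytoid markers summed to at most 10.0 UMIs per 10000 in any positive member of KO and 14.1 in any of flox, and Cox6a2 and Klk1 were at 0 in both. T cell markers reached at most 0.495 in KO and 0.815 in flox. NK cell markers reached 15.2 in 1 positive member of KO, against at most 1.04 in flox. Another 1 of the positive KO members, with Xcr1, had 58.5 UMIs per 10000 of RPE markers, and among all KO members the highest NK sum was 68.9, in a negative member. Doublets were called with Scrublet in 1.41% of kept KO cells and 0.497% of kept flox cells; 1 KO member and no flox member was called, and none was removed.

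The Xcr1 and Clec9a threshold cut through a well filled range, and the H2-Aa threshold through a thin one. Just inside the Xcr1 and Clec9a threshold, at 2 UMIs, were 13 KO cells, of which 4 were Tlr3/Snx22-positive, and 12 flox cells, of which 5 were. Just outside it, at 1 UMI, were 17 KO cells with 3 positive and 33 flox cells with 7 positive. At 4 UMIs or more, 19 of 28 KO members and 46 of 51 flox members were positive. Among cells that met the H2-Aa, Cd3e and Cd79a criteria but had neither Xcr1 nor Clec9a, 17 of 214 in KO and 31 of 317 in flox had Tlr3 or Snx22. The exclusion of cells with Cd3e or Cd79a left out 4 KO cells, 1 of them positive, and 8 flox cells, 7 of them positive. At the H2-Aa threshold, 3 members in each library had 10 to 19 UMIs, and cells with 5 to 9 UMIs numbered 0 in KO and 2 in flox.

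Members were a smaller share of the kept cells in the KO library, at 1.26% (interval 0.933% to 1.65%) against 2.05% (interval 1.60% to 2.58%) in flox. The gap lay in the positive members, which were 0.678% of KO cells (interval 0.447% to 0.985%) and 1.58% of flox cells (interval 1.19% to 2.06%). The negative members were 0.578% of KO cells and 0.468% of flox cells, with overlapping intervals. Cells by the cDC2 rule (2 or more UMIs of Cd209a and Clec10a, the same H2-Aa, Cd3e and Cd79a criteria, and under 2 UMIs of Xcr1 and Clec9a) were also a smaller share in KO, 90 cells or 2.26% (interval 1.82% to 2.77%), against 135 cells or 3.95% (interval 3.32% to 4.66%) in flox.

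Members as a share of members and cDC2 together were 35.7% in KO (interval 27.8% to 44.2%) and 34.1% in flox (interval 27.7% to 41.1%), with overlapping intervals. For the positive members alone this share was 23.1% in KO (interval 15.8% to 31.8%) and 28.6% in flox (interval 22.2% to 35.6%). With the rule applied to cells thinned to 2000 UMIs, 2 KO and 15 flox members were left. The share of all members among members and cDC2 was then 4.88% in KO and 26.3% in flox. Sex moved with library and with share. Positive members were 0.192% of female cells (3 of 1565) and 1.09% of male cells (15 of 1379) in KO, against 1.29% of female cells (29 of 2248) and 3.54% of male cells (19 of 537) in flox. Within either sex the KO share was the lower. These shares leave out the positive members with no sex assigned, 9 of 27 in KO and 6 of 54 in flox. A sort and an enzymatic digestion precede these shares, and their part in the difference was not tested.

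**Figure D2:**
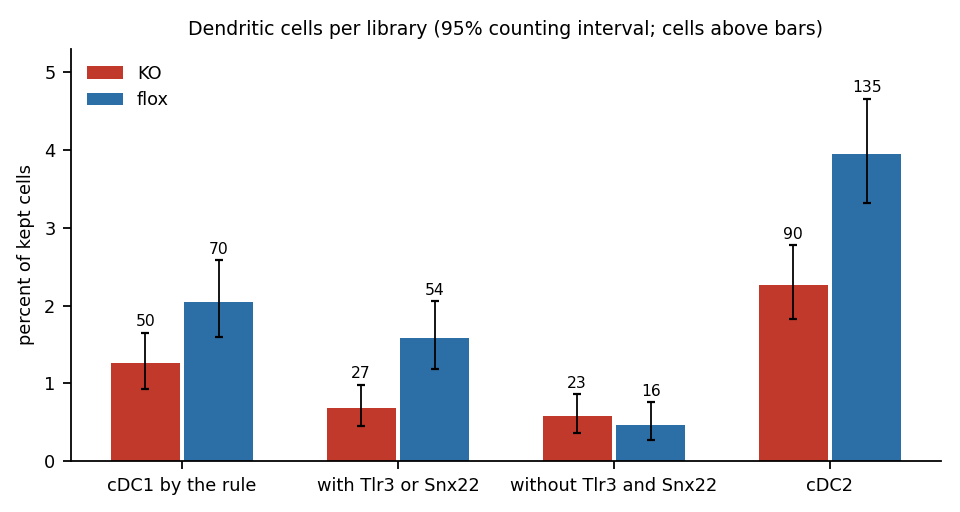
Bars give cells as a percentage of the kept cells of each library, KO left of flox in each pair, for members by the rule, members with and without Tlr3 or Snx22, and cDC2; lines are 95% Clopper-Pearson intervals for counting error and the number above each bar is its cell count. The positive members stand at 0.678% in KO and 1.58% in flox, and the negative members at 0.578% in KO and 0.468% in flox.

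Next, members were set against the 90 KO and 135 flox cDC2, within each library. The cells were chosen by transcripts, so these differences are a description. A gene counted as past the fold when the interval of its CPM ratio lay beyond 2-fold in the same direction in both libraries; 0.5 UMIs were added to each side, and the 7 genes of the rules were left out. Over 8613 genes with at least 20 UMIs, 1.22% were higher in members and 1.36% lower. For positive members against cDC2, over 8220 genes, 1.59% were higher and 3.72% lower. Median log2 ratios over all genes were -0.02 in KO and 0.02 in flox for the positive members.

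The cDC1 identity list had 22 measured genes in the positive members, and all 22 were past the fold higher, against 1.59% of all genes. The list median was 3.83 in KO (3.72 with genes at 0 UMIs in cDC2 set to their bound) and 3.76 in flox on the log2 scale; Tlr3 and Snx22, which defined the positives, are among the 22. Of transcription factors, Irf8 stood at 1273 CPM in positive members and 148 CPM in cDC2 in KO, and at 1163 CPM in positive members and 85.4 CPM in cDC2 in flox, log2 ratios of 3.10 in KO and 3.76 in flox. Batf3 was higher by less, at 224 CPM in positive members and 77.2 CPM in cDC2 in KO and at 215 CPM in positive members and 85.0 CPM in cDC2 in flox. The gap was wider for Irf8 than for Batf3 in both libraries, and 60% of cDC2 in each had a Batf3 UMI.

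The identity list also holds genes of uptake and trafficking, which were higher. Wdfy4, which is required for cross-presentation of cell-associated antigen, had log2 ratios of 2.04 in KO and 2.12 in flox. Rab7b, a small GTPase of endosomes, had 3.55 in KO and 3.75 in flox. Cd36, a scavenger receptor, stood at 40.4 CPM in positive members and 1.8 CPM in cDC2 in KO, and at 83.9 CPM in positive members and 6.3 CPM in cDC2 in flox. Ly75 (DEC-205, an endocytic receptor) stood at 66.9 CPM in positive members and 0.598 CPM in cDC2 in KO; in flox it stood at 57.1 CPM in positive members and had no UMI in cDC2, which makes it at least 48.4-fold higher. Ppt1, a lysosomal thioesterase, had 677 CPM in positive members against 61.0 CPM in cDC2 in KO, and 921 CPM in positive members against 71.2 CPM in cDC2 in flox. Uptake genes as a group were not higher: of 12 measured genes of the apoptotic cell uptake list, 1 was past the fold higher (Cd36) and 3 were past the fold lower (Lamp1, Lamp2 and Ctsl, genes of lysosomal proteins, between -2.72 and -1.34), with medians of -1.34 in KO and -1.41 in flox. The shares over all genes were 1.59% higher and 3.72% lower.

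Gcsam, a signalling adaptor known from germinal centre B cells, was not detected in cDC2. It stood at 107 CPM in positive members of KO and 71.2 CPM in those of flox, and at 0 UMIs in cDC2 of both libraries. Against the floor of 3 UMIs over all cDC2 of a library it was at least 59.8-fold higher in KO and at least 60.3-fold higher in flox. The genes named by rank over all members also held Trim35, a ubiquitin ligase (log2 3.28 in KO and 3.29 in flox), Mycl, a Myc family factor (3.09 in KO and 3.24 in flox), P2ry14, a receptor for UDP-sugars (2.90 in KO and 3.43 in flox), and Ccser1, Rtl8a, Rtl8b, Lima1 and Ifi205, between 2.52 and 3.72; Rtl8a and Rtl8b are near-identical copies, and their reads may be split between them.

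**Figure D3:**
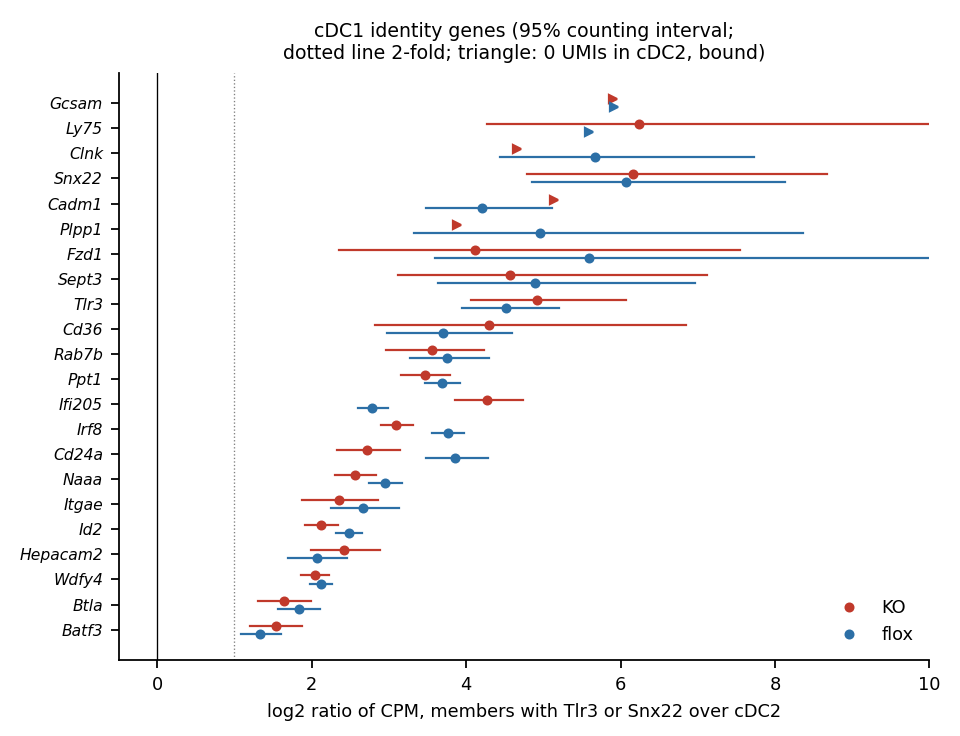
Points are log2 ratios of CPM, positive members over cDC2, for the 22 measured genes of the cDC1 identity list, KO above flox for each gene, with 95% counting intervals (cut at 10); triangles are lower bounds for genes with 0 UMIs in cDC2. Every gene lies right of the dotted 2-fold line in both libraries, with Batf3 at 1.53 in KO and 1.34 in flox.

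The cDC2 list was the mirror image. Of its 22 measured genes, 19 were past the fold lower in positive members, against 3.72% of all genes. The list medians were -3.76 in KO (-3.58 at the bound) and -3.79 in flox. The 2 lectins of the cDC2 rule are not counted. Sirpa, the signal-regulatory receptor, stood at 5.05 CPM in positive members and 115 CPM in cDC2 in KO, and at 4.94 CPM in positive members and 132 CPM in cDC2 in flox. Csf1r, the receptor for macrophage colony-stimulating factor, had log2 ratios of -3.01 in KO and -3.79 in flox, and Zeb2 had -3.59 in KO and -4.79 in flox. Mgl2, a galactose lectin, had no UMI in positive members, at least 25.1-fold lower than cDC2 in KO and at least 77.8-fold lower in flox. Over all members, the rank rule also named F13a1, Clec4n, Id3, Fn1, Ccl9, Tmem176b, Fcgr3, Cd72, Gda, Mcemp1, Tmem176a, Ptgs2, Lrp1 and Tnf as lower, between -5.44 and -2.38 with Mgl2 counted.

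Most antigen presentation genes were not past the fold between the types, but some differed widely. Over all genes, 1.59% were past the fold higher and 3.72% lower in positive members. Of 21 MHC class I and cross-presentation genes, 2 were past the fold higher in positive members, Wdfy4 and Psme1 (a proteasome activator subunit; log2 1.23 in KO and 1.17 in flox). Cybb, the NADPH oxidase subunit, was past the fold lower, with log2 ratios of -3.66 in KO and -4.66 in flox. H2-K1, a class I heavy chain, stood at 369 CPM in positive members and 848 CPM in cDC2 in KO, and at 511 CPM in positive members and 942 CPM in cDC2 in flox. Of 13 MHC class II genes, 1 was past the fold lower, Ctss (cathepsin S, which trims the invariant chain; -1.38 in KO and -1.54 in flox), and H2-Ab1 was close to level, at -0.15 in KO and -0.18 in flox.

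The sensor profile was narrow. Of 14 measured pattern recognition genes, Tlr3 was past the fold higher (189 CPM in positive members against 5.98 CPM in cDC2 in KO, 220.0 CPM in positive members against 9.44 CPM in cDC2 in flox) and Tlr2, Ddx58 and Clec4n were past the fold lower. The shares over all genes were 1.59% higher and 3.72% lower. Tlr11 and Tlr12, endosomal receptors for the protozoan protein profilin, were too low for the fold comparison: Tlr11 had 9 UMIs in KO and 25 UMIs in flox positive members, and Tlr12 had 6 UMIs in KO and 23 UMIs in flox, against at most 1 UMI of either gene in cDC2 of either library. Tlr2, a surface receptor for bacterial lipoproteins, stood at 11.4 CPM in positive members and 66.4 CPM in cDC2 in KO, and at 9.87 CPM in positive members and 59.8 CPM in cDC2 in flox.

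Cytokines and their receptors set the types apart as well. Cxcr3, a receptor for interferon-induced chemokines, stood at 31.6 CPM in positive members and 1.8 CPM in cDC2 in KO, and at 49.4 CPM in positive members and 0.787 CPM in cDC2 in flox. Of 20 measured receptor genes it was the 1 past the fold higher, while 6 were lower: Csf1r, Il17ra, Il10ra, Il2rg, Ccr1 and Cx3cr1. Of 14 cytokine and chemokine genes, 4 were lower, Il1b, Tnf, Ccl6 and Ccl9, and none was higher. The shares over all genes were 1.59% higher and 3.72% lower in positive members. Il1b stood at 529 CPM in positive members and 2021 CPM in cDC2 in KO, and at 439 CPM in positive members and 1924 CPM in cDC2 in flox. Il12b and Ifnb1 had no UMI in any member.

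Il17ra, the gene named in the genotype (chr6:120463247-120487559, plus strand), encodes the receptor chain shared by several interleukin-17 cytokines. In positive members it had 16 UMIs in KO (20.2 CPM, 14 of 27 cells) and 36 UMIs in flox (25.4 CPM, 18 of 54 cells). In cDC2 it had 173 UMIs in KO (104 CPM) and 294 UMIs in flox (116 CPM). The log2 ratio of positive members over cDC2 was -2.32 in KO and -2.17 in flox, past the fold. Between genotypes the KO over flox log2 ratio was -0.30 in positive members (ratio interval 0.412 to 1.47) and -0.16 in cDC2 (ratio interval 0.737 to 1.08). The negative members had 88.7 CPM in KO and 104 CPM in flox. Among the positive members, those with Xcr1 stood at 11.5 CPM in KO and 12.1 CPM in flox, and those without Xcr1 at 37.0 CPM in KO and 66.8 CPM in flox. A 3' tag reads the end of the transcript, and it checks the deletion only if the deleted part includes that end, so these levels do not check the labels.

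The list of IL-17 receptor signalling and response genes was also set against cDC2. Of its 11 measured genes, 5 were past the fold lower in positive members, where 3.72% of all genes were. These were Il17ra itself, Nfkbia and Tnfaip3 (inhibitors of NF-kB), Nfkbiz (an IκB family co-activator) and Cebpb (a transcription factor of inflammatory genes). Whether their levels depend on the receptor was not tested. Nfkbiz stood at 21.5 CPM in positive members and 197 CPM in cDC2 in KO, and at 31.7 CPM in positive members and 204 CPM in cDC2 in flox. Between the genotypes, 1 of these 11 genes was past the fold in positive members, Cxcl2, a neutrophil chemokine that was higher in KO with 31 UMIs against 20 in flox, and 96.8% of the KO UMIs were in 1 cell. The list median of KO over flox was -0.10.

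Positive members held many dividing cells. Cells with 2 or more summed UMIs of Mki67, Top2a, Birc5, Ube2c and Cdk1, all genes of mitosis or DNA replication, were 14 of 27 positive members in KO (51.9%, interval 31.9% to 71.3%) and 18 of 54 in flox (33.3%, interval 21.1% to 47.5%), intervals that overlap. Negative members had 0 of 23 in KO and 2 of 16 in flox. The 0 in KO allows up to 13.04% by 3 counts over the number of cells, and 14.8% by the Clopper-Pearson limit. cDC2 had 10 of 90 in KO and 20 of 135 in flox, and all kept cells had 5.45% in KO and 7.52% in flox. Of 17 measured proliferation genes, 7 were past the fold higher in positive members than in cDC2, against 1.59% of all genes. All 17 had ratios above 1 in both libraries. Top2a, a topoisomerase, stood at 216 CPM in positive members against 16.2 CPM in cDC2 in KO, and at 197 CPM in positive members against 19.7 CPM in cDC2 in flox. With each cell thinned to 2000 UMIs, Mki67 was found in 7.41% of positive members in KO and 9.26% in flox, against 3.33% of cDC2 in KO and 3.76% in flox.

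Thinning lowered the marker shares but kept their contrast with other cells. At 2000 UMIs a cell, Tlr3 was found in 22.0% of KO members and 24.3% of flox members, against 52% of KO members and 72.9% of flox members as counted. The thinned shares of Tlr3 in cDC2 were 1.11% in KO and 2.26% in flox. In B cells (2 or more Cd79a UMIs and none of Cd3e, Xcr1 or Clec9a) they were 0 of 942 in KO and 3 of 598 in flox. The 0 in KO allows up to 0.318% of cells with a UMI at this thinned depth (3 counts over the number of cells). As counted, Tlr3 was in 0.836% of KO B cells and 1.96% of flox B cells. B cells were shallower, with medians of 6388 UMIs in KO and 6092 UMIs in flox. Of cells with 2 or more Cd79a UMIs and no Cd3e, whatever their Xcr1 and Clec9a, 4 of 961 in KO and 2 of 613 in flox had a Clec9a UMI. Naaa as counted was found in 8.25% of KO and 10.3% of flox B cells.

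No member combined the markers of migratory mature cells. Migratory mature dendritic cells are marked by the chemokine receptor gene Ccr7 with the actin bundler gene Fscn1; 0 of 50 KO members and 0 of 70 flox members had both, which allows up to 6% of KO and 4.29% of flox cells with UMIs of both (3 counts over the number of cells) and sets no limit on cells that express them. Ccr7 alone had 3 UMIs in 3 KO members and Fscn1 had 1 UMI in 1 KO member, and neither had a UMI in flox members. Of 12 maturation and co-stimulation genes, 4 were past the fold lower in positive members than in cDC2: Cd80, Relb, Tnfsf9 and Marcksl1. The share over all genes was 3.72%. Cd40, a co-stimulatory receptor, had 1 UMI in KO and 24 UMIs in flox positive members, a flox over KO ratio of 9.12 (interval 2.19 to 551).

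For KO against flox, a gene counted as past the fold when the interval of its CPM ratio lay beyond 1.5-fold. In all members 1.44% of 8735 genes were higher in KO and 0.756% lower. In positive members 0.492% of 7718 genes were higher and 1.06% lower, and in cDC2 0.427% of 9370 genes were higher and 1.26% lower. Because the libraries held the classes in different proportion, with 23 of 50 KO members and 16 of 70 flox members negative, the all-member ratios mix composition with level. Of the plasmacytoid markers, 5 of 8 were past the fold higher in all KO members and none in the positive ones. Siglech had 402 UMIs in KO members and 150 in flox members, log2 1.89.

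Over all members, the genes named by rank as higher in KO were Ccl5, Cd209d, Zc3h12b, Slc15a2, Siglech, Gria3, Runx2, Prkca, Klra17, Blnk, Apoe and Dab2, with log2 ratios from 1.47 to 4.17. Ccl5, a T cell-attracting chemokine, headed them, with 306 UMIs in KO and 23 in flox. Without 3 KO members that had 30 or more UMIs of NK cell or RPE markers, its log2 ratio was -0.46. Named as lower were Ifi44, March3, Eif2b3, Cdca8, Ildr1, Parp12, Isg15, Cd36, Irf7, Clnk, Ppfibp2 and Syne1, from -2.72 to -1.21. The identity list had 4 genes past the fold lower over all members (Cadm1, Ppt1, Cd36 and Clnk) and 1 higher (Cd8a, with 81.1% of its KO UMIs in 1 cell).

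Within positive members the identity genes were close to level. None of 23 measured identity genes was past the fold between KO and flox, and the list median was -0.14 against 0.01 for all genes. Irf8 stood at 1273 CPM in KO and 1163 CPM in flox, Batf3 at 224 CPM in KO and 215 CPM in flox, and Itgae at 157 CPM in KO and 144 CPM in flox. Cadm1 was lower in KO, at 63.1 CPM against 112 CPM in flox (log2 -0.82), and Cd36, whose levels are given above, was lower in KO too. Of the 23 genes, 16 had a log2 ratio below 0 and 7 above. No gene was past the fold among 21 MHC class I genes (median -0.19), 13 MHC class II genes (median -0.10) or 19 proliferation genes (median 0.08). With 27 KO cells and counting error only, a gene inside the fold is not shown to be equal.

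Type I interferon genes stood apart in the positive members. Type I interferon signals through its receptor to transcription factors that bind a short element upstream of their target genes and switch on antiviral proteins. Of 23 measured genes of this list, all 23 had lower CPM in KO than in flox positive members and 16 were past the fold lower, against a background of 1.06%. The list median was -1.84 on the log2 scale, against 0.01 for all 7718 genes. Without the members that met the cDC2 lectin criterion, 20 of 20 measured genes were lower in KO, with a median of -1.49. With the rule applied to thinned cells, which left 2 KO and 15 flox members before the Tlr3/Snx22 split, 5 of 9 were lower, the median was -0.038, and the log2 ratios of Isg15, Irf7, Usp18, Slfn5 and Ifi27l2a, counted whatever their UMIs, lay above 0. In cDC2 of the same libraries 18 of 26 were past the fold lower, against 1.26% of 9370 genes, with a median of -1.24. Positive members and cDC2 came from the same libraries, so the values of 1 are no separate support for those of the other, and with 1 library a genotype the genotype and the library cannot be told apart. Against cDC2, 8 of 26 genes of the list were past the fold lower in positive members, where 3.72% of all genes were. The list medians were -1.68 in KO and -0.57 in flox.

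Isg15, a ubiquitin-like modifier induced by interferon (chr4:156199424-156200818, minus strand), had 73 UMIs in 14 of 27 KO positive members and 516 UMIs in 38 of 54 flox positive members. That is 92.2 CPM in KO and 364 CPM in flox, a flox over KO ratio of 3.92 (interval 3.08 to 5.11). Irf7, the factor that amplifies interferon production, stood at 85.9 CPM in KO (20 cells) and 286 CPM in flox (44 cells), and Usp18, which removes ISG15 and dampens receptor signalling, at 26.5 CPM in 11 KO cells and 90.9 CPM in 30 flox cells. These 3 genes were spread over many flox cells, and no cell held more than 24.0% of their flox UMIs. Ifit2 and Ifit3, RNA-binding antiviral proteins, were concentrated in fewer cells. Ifit2 had 1 UMI in KO and 131 UMIs in 19 flox cells, a flox over KO ratio of 48.9 (interval 12.9 to 2911). Ifit3 had 0 UMIs in KO and 73 in 6 flox cells, at least 13.6-fold lower in KO.

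The promoters of 3 of these genes are shown because the genes moved together and differ in matches to a letter pattern of the interferon element. Each is 300 bases from the RefSeq annotation of GRCm38.p6, from 250 bases before to 50 after the start, read 5' to 3' on the gene's strand; Isg15 is at chr4:156200769-156201068 (minus strand), Ifit3 at chr19:34583279-34583578 (plus strand) and Irf7 at chr7:141266375-141266674 (minus strand). Capitals mark matches to GAAA, any 2 bases and GAAA, or to TTTC, any 2 bases and TTTC on the other strand.
Isg15: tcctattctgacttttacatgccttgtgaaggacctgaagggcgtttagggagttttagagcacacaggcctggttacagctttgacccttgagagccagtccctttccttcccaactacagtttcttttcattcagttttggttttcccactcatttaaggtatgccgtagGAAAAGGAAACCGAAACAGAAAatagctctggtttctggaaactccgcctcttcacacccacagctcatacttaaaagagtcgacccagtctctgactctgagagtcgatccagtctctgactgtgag
Ifit3: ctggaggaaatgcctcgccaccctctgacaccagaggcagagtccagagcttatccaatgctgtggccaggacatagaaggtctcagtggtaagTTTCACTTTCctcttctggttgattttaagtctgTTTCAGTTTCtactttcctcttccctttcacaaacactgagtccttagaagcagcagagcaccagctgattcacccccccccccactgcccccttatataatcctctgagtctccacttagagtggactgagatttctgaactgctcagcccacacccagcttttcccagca
Irf7: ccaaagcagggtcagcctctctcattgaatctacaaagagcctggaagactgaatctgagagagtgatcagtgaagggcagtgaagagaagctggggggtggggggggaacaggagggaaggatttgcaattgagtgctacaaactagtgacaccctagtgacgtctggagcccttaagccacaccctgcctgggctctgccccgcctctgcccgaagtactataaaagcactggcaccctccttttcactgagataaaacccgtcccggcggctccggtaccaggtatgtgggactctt
Isg15 had 3 overlapping matches, Ifit3 had 2 and Irf7 had none. Over all 32851 promoters of the table, 3.44% held a match, and by gene 3.99% of 27025 genes did, as did 14 of 21 genes of the type I interferon list, 7 of 13 of its genes that were past the fold lower in positive members, and 2 of 19 cDC1 identity genes. A match is a stretch of letters and not a measured binding site. The absence of a match in these 300 bases does not show that a gene lacks the element.

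The rest of the list kept the direction with smaller gaps where the level was high. Bst2 (tetherin), present in 27 of 27 KO and 51 of 54 flox positive members, stood at 355 CPM in KO and 441 CPM in flox, and was inside the fold. Stat2, a transcription factor of the interferon response, stood at 80.8 CPM in KO and 118 CPM in flox, also inside the fold. Slfn5 and Ifi27l2a were past it, at log2 -1.01 and -1.02, as were Rsad2 (viperin, -2.54), Ifi44 (-2.28), Zbp1 (a sensor of Z-form nucleic acid, -1.47), Ifih1 (the RNA sensor MDA5, -1.84) and 3 genes with few KO UMIs. Oasl1 had 3 UMIs in KO and 42 in flox, a flox over KO ratio of 6.78 (interval 2.50 to 39.4). Oasl2 had 2 UMIs in KO and 42 in flox (ratio 9.49, interval 3.05 to 99.99), and Cmpk2 had 2 in KO and 34 in flox (ratio 7.71, interval 2.43 to 81.5). Cxcl10 is among the 16, but all its 157 flox UMIs were in 1 cell. Ifit3 has a near-identical copy, Ifit3b, so the split of UMIs between them is uncertain.

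Other genes known to respond to interferon were among the 12 named by rank as lower in positive members. Isg20, an exonuclease, had 5 UMIs in KO and 73 in flox, and Ifi47, a GTPase, had 8 UMIs in KO and 89 in flox. Ifi204, a DNA sensor, had 19 UMIs in KO and 142 in flox, and Ly6a (Sca-1) had 24 in KO and 143 in flox. The named genes outside this theme were March3, Eif2b3 and Inpp4b, and 83.5% of the Eif2b3 UMIs in flox were in 1 cell. In the interferon-gamma response list all 7 measured genes were below flox. Past the fold were 2 of them, Ifi47 and Irgm1 (log2 -1.54), against 1.06% of all genes. Ccl3, a chemokine, had 4 UMIs in KO and 53 in flox, 45.3% of them in 1 flox cell. Higher in KO positive members were Apoe and Ccl5, with 87.9% (Apoe) and 96.1% (Ccl5) of their KO UMIs in 1 cell, and Spint1 (a protease inhibitor, log2 1.57) and Gxylt1 (a xylosyltransferase, 1.53), each spread over 16 or more cells.

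**Figure D4:**
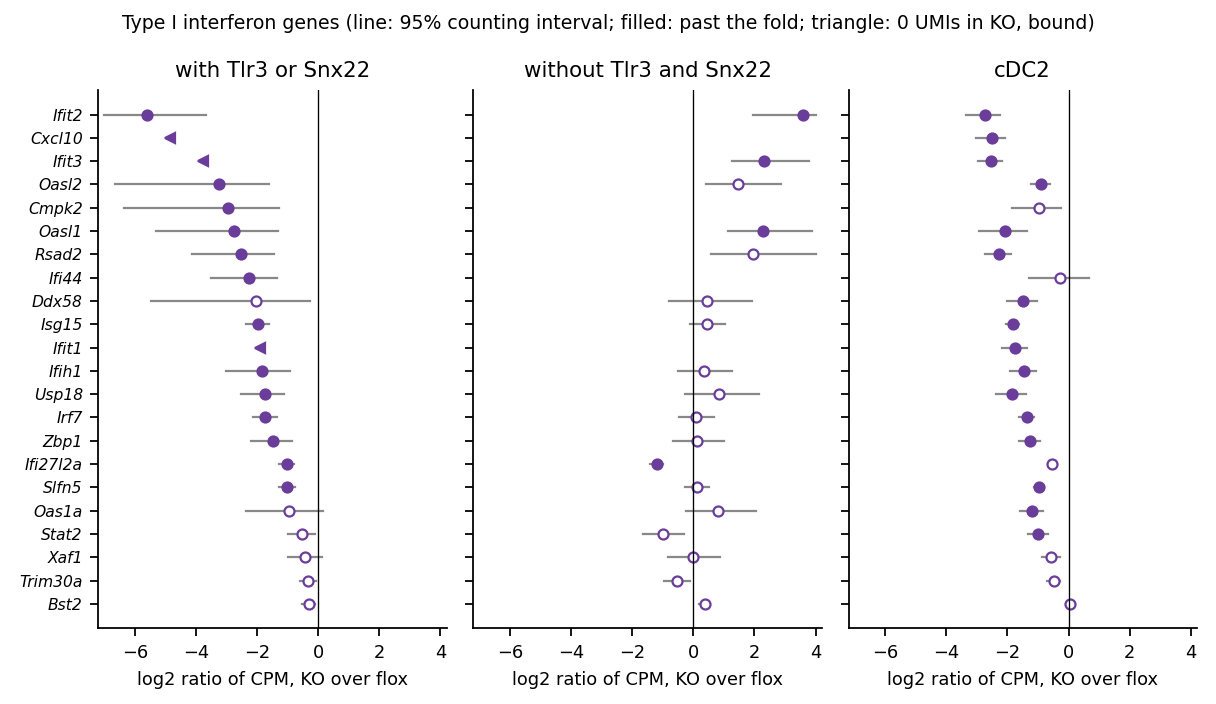
Points are log2 ratios of CPM, KO over flox, for 22 of the 23 type I interferon genes measured in positive members, in positive members (left), negative members (middle) and cDC2 (right), with 95% counting intervals cut at the axis limits; filled points are past 1.5-fold and triangles are bounds for genes with 0 UMIs in KO. All 22 lie left of 0 in positive members, most lie right of 0 in negative members, and Bst2 alone lies right of 0 in cDC2 (0.06).

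In the pooled UMIs of the negative members, 17 of 21 measured genes had higher CPM in KO, and the median was 0.38. The medians of the sum per cell were lower in KO in each class of them: 59.3 UMIs per 10000 in KO and 71.4 in flox in the Siglech class, 31.5 in KO and 32.7 in flox in the Cd209a class, and 31.6 in KO and 39.0 in flox in the remaining cells. Bst2 is in both the type I interferon list and the plasmacytoid list, so it counts in the interferon sum of the Siglech class. In the 7 KO cells of that class Isg15 and Ifit2 had 0 UMIs, and Irf7 stood at 147 CPM. The pooled values also weight the classes unequally, with 7 of 23 KO and 3 of 16 flox negative members in the Siglech class, and 1 KO cell had a sum of 199.9. Of the 21 genes, Ifit2, Ifit3, Ifit3b and Oasl1 were past the fold higher, and 84.4% to 98.2% of their KO UMIs were in 1 cell. Ifi27l2a was past the fold lower, at 763 CPM in KO and 1761 CPM in flox. Over all members together 6 of 26 were past the fold lower, against 0.756% of all genes. The median was -0.48, between the values of the positive and the negative members. The difference between the positive and negative members was not tested.

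Per cell, the summed UMIs of the 26 type I interferon genes in the matrix ran from 2.87 to 33.7 per 10000 with a median of 12.5 in the 27 KO positive members, and from 2.53 to 195 with a median of 20.1 in the 54 flox positive members. The groups overlapped over the whole KO range, and the cells above 33.7 were all flox. By sex, male cells had medians of 16.8 in KO (n = 15) and 37.0 in flox (n = 19), and female cells 10.2 in KO (n = 3) and 16.4 in flox (n = 29). Male medians were above female medians in both libraries. Positive members with no sex assigned had medians of 12.5 in KO (n = 9) and 11.7 in flox (n = 6). The part of sex in the difference was not tested. Negative members had medians of 38.4 in KO and 42.5 in flox, and cDC2 22.6 in KO and 36.7 in flox.

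**Figure D5:**
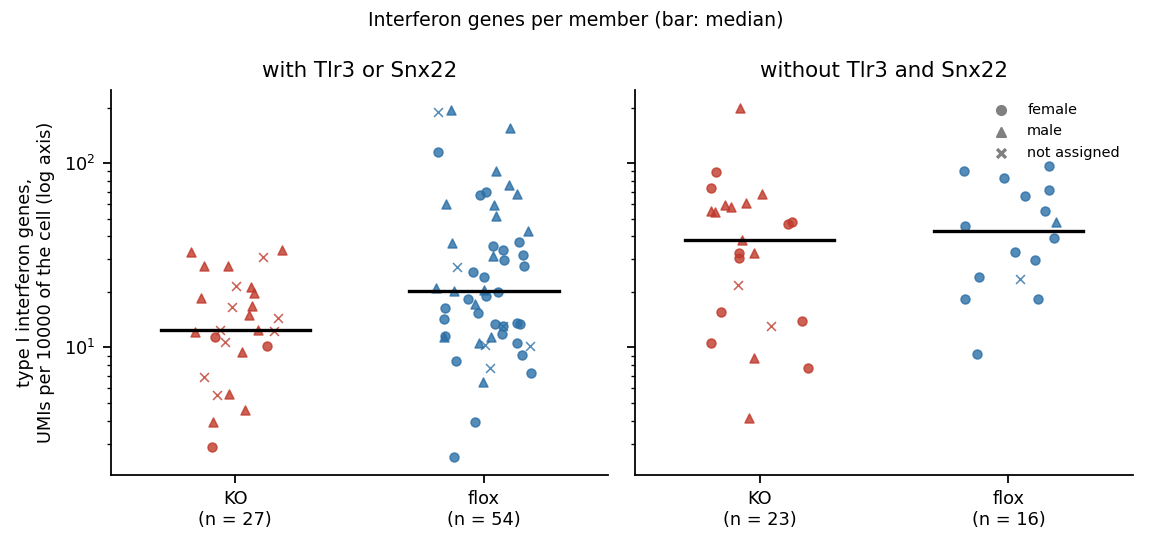
Each point is a member; the vertical log axis gives its summed type I interferon genes in UMIs per 10000 UMIs of the cell, for positive members (left panel) and negative members (right panel), KO left of flox, with shape for sex by Xist and Y-linked UMIs and a bar at the median. Positive members of KO stay at or below 33.7 while those of flox reach 195; in negative members the medians are 38.4 in KO and 42.5 in flox.

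Stress and tissue response lists gave little in the positive members. None of 18 immediate early and stress genes was past the fold between KO and flox (median 0.11), and 1 of 13 oxidative stress genes was, Gsr, a glutathione reductase higher in KO. Of 9 measured genes of apoptotic cell uptake none was past the fold (median -0.08). Between types, Txn1 (thioredoxin) was past the fold higher in positive members than in cDC2, with log2 ratios of 1.95 in KO and 1.65 in flox.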

How the data were processed

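Counts are UMI counts per gene and barcode, deposited by the authors as 1 matrix a library with 32285 genes; reads had been processed with Cell Ranger on mm10 per the submitters' processing notes, and per the file headers with version 7.0.1 for KO and version 4 for flox. From these, cells were kept, members and cDC2 chosen by the stated UMI rules, and their UMIs summed per library (CPM, or per 10000 UMIs of a cell). Ratios had 0.5 UMIs added to each side and exact intervals at 95%, for counting error only. Lists are described over genes with at least 20 UMIs in the groups compared. Against cDC2, the 15 genes a direction with the largest smaller ratio were named among those past the fold with 50 CPM or more in the higher group of each library. For KO over flox, the 12 a direction with the largest ratio were named among those past the fold with 50 UMIs, 50 CPM and a UMI in 20% of the cells of the higher library. Ribosomal protein and mitochondrial genes, haemoglobins, Xist and genes of the Y chromosome were not eligible, and genes of the fixed lists were named beside these. A fold against 0 UMIs used a floor of 3 UMIs over the group.

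The members and gene lists were chosen with earlier results of these data known. Of 379 list genes, 376 were matched in the matrix; 1 gene of the type I interferon list counts in its totals and is not reported here by itself. Doublets were called with Scrublet in scanpy 1.11.5 and left in; in flox it marked under 0.5% of 3418 cells. Median depth of members was 23159.5 UMIs in KO and 23185.5 UMIs in flox. Shares at equal depth used cells thinned to 2000 UMIs. Gene positions are from GENCODE on GRCm38 and promoters from RefSeq. The procedure was tested on simulated data, with Python 3.11.15, numpy 2.4.6, pandas 2.3.3, scipy 1.17.1 and matplotlib 3.10.9. Alternatives varied the cell filters, the rule, doublets, sex, scaling, the added UMIs and depth.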

Additional observations from a re-analysis of the deposited data

Results flagged for a closer look

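Genes were taken up here when KO over flox lay past the fold in opposite directions in members and in cDC2. The rule on a single sample far from its group could not be applied with 1 library a genotype, and the difference between the cell types was not tested for any gene below. The chemokine gene Ccl5 had a log2 ratio of 4.17 in members and -2.08 in cDC2; of its 306 UMIs in KO members, 148 were in a negative member with 169 UMIs of NK cell markers and 147 in a positive member with 33, and without the 3 KO members with 30 or more UMIs of NK cell or RPE markers its log2 ratio was -0.46. Ccl17 and Ccl22, chemokines of mature dendritic cells, had log2 ratios of 6.49 (Ccl17) and 2.94 (Ccl22) in members, and -1.87 (Ccl17) and -2.09 (Ccl22) in cDC2. In KO members, 96.9% of the Ccl17 UMIs and 100% of the Ccl22 UMIs were in 1 cell. Ccl17 had no UMI in flox members, so its fitted ratio is no bound, and against 3 UMIs it was at least 14.7-fold higher in KO. Ccl22 had 19 UMIs in KO and 3 in flox members, a ratio of 7.70 (interval 2.58 to 46.2).

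Axl, a receptor for bridging molecules on dying cells, had a log2 ratio of 2.72 in members, from 21 UMIs in KO and 4 UMIs in flox, and -1.27 in cDC2, from 30 UMIs in KO and 111 UMIs in flox. Apoe, a lipid carrier of macrophages, had 1.48 in members and -0.88 in cDC2, and 55.2% of its KO UMIs in members were in 1 cell. The histone genes Hist1h2ae and Hist1h2ab had log2 ratios of 0.92 (Hist1h2ae) and 1.17 (Hist1h2ab) in members, and -4.12 (Hist1h2ae) and -4.71 (Hist1h2ab) in cDC2. In KO members, 61.2% of the Hist1h2ae UMIs and 81.0% of the Hist1h2ab UMIs were in 1 cell. In cDC2, Hist1h2ab had 1 UMI in KO and 59 UMIs in flox, a flox over KO ratio of 26.1 (interval 6.70 to 1558). Histone genes of this cluster are near-identical to one another, so the split of their UMIs is uncertain.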

How the results depend on the processing

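Each result was recomputed under the settings chosen with the design and 3 added after seeing the data: the Tlr3/Snx22-positive members, the members without the Siglech class, and the members without the 3 KO cells with 30 or more UMIs of NK cell or RPE markers. Of the shares, gene counts and list medians, 230 recomputed values stayed within the interval of the reported one, 64 moved and 4 changed sign. That interval was the counting interval for a share, and within 1.5 times for a count of genes. For a list median it was taken from the spread of ratios among the genes of the list, not from counting error. Of the values of single genes and of positive members, 2321 stayed, 439 moved and 35 changed sign, and 39 gave no ratio because both sides had 3 UMIs or fewer. The cause of these moves was not tested except where fewer cells or genes entered. No paired analysis was possible because each genotype had 1 library, and no replicate could be left out.

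With at least 1 UMI of Xcr1 and Clec9a, members were 1.68% of kept cells in KO and 3.01% in flox, and 45.3% in KO and 47.2% in flox of members and cDC2 together; 45 genes were lower than in cDC2, the proliferation median of KO over flox was 0.046, and the log2 ratio of Apoe was -0.20. With at least 4, the shares were 0.703% in KO and 1.49% in flox, and 21.7% in KO and 26% in flox; 261 genes were lower, the proliferation median was -0.013 and the type I interferon median -1.64. With the rule applied to cells thinned to 2000 UMIs, 2 KO and 15 flox members remained: 0.0518% of KO and 0.448% of flox kept cells, and 4.88% in KO and 26.3% in flox with cDC2. Then 25 genes were higher and 64 lower than in cDC2, and 32 genes were higher and 42 lower in KO; medians were -3.33 for proliferation, -0.38 for MHC class I, 0.017 for cDC1 identity and -0.038 for type I interferon in positive members. In those 2 KO cells the sign of KO over flox (log2) changed for Slc15a2 -1.05, Siglech -0.84, Runx2 -1.23, Eif2b3 0.75, Isg15 0.29, Irf7 0.50, Clnk 0.017 and Ppfibp2 0.73 over members, and for Eif2b3 0.73, Ifi204 0.52, Isg15 0.30, Usp18 0.64, Irf7 0.48, Slfn5 1.35 and Ifi27l2a 0.65 over positive members.

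In female cells the KO share was 0.831%; 10 genes were higher and 27 lower than in cDC2, with Ccser1 at -0.75 in KO; the KO over flox medians were -2.11 for proliferation and -1.05 for identity, and the sign changed for Prkca -0.66 and Blnk -0.021 over members and Ccl5 -1.52, Ifih1 0.18 and Oasl2 0.74 over positive members, where 3 KO cells were female. In male cells the shares were 1.89% in KO and 3.72% in flox (44.4% in flox with cDC2), the medians were 0.10 for proliferation and -0.71 for identity, and Eif2b3 was at 0.72 over members and 0.58 over positive members. In positive members, the type I interferon median was -1.82 in female cells and -2.20 in male cells.

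Without members with 2 or more UMIs of Cd209a and Clec10a, the shares were 0.829% in KO and 1.55% in flox (26.8% in KO with cDC2), 205 genes were lower than in cDC2 and the proliferation median was -0.018. Without cycling members 57 genes were higher and 47 lower than in cDC2, Top2a was at -4.69 in KO and -3.86 in flox, the identity median was -0.94 and Ccl5 in positive members at -2.03. In the positive members alone, the shares were 0.678% in KO and 1.58% in flox (23.1% in KO with cDC2), 306 genes were lower than in cDC2 and 38 higher in KO, and medians were 0.079 for proliferation, -1.84 for type I interferon and -0.14 for identity. Without the Siglech class Blnk was at -0.63, and without the 3 KO cells Ccl5 was at -0.46 over members and -0.77 over positive members.

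With UMIs thinned to 2000 a cell, which leaves fewer UMIs for each gene, 8 genes were higher and 10 lower than in cDC2, 9 higher and 7 lower in KO, the medians were -0.95 for type I interferon and -0.060 for MHC class I, and the sign changed for Parp12 0.12 and Clnk 0.20 over members. Without the highest cell of each gene 74 genes were higher in KO, the type I interferon median was -0.87, Eif2b3 was at 0.28 over members and 0.23 over positive members, and Ccl5 at -0.72 over positive members. With no UMI minimum 190 genes were higher in KO. As counted, without thinning, Tlr3 was in 52% of KO and 72.9% of flox members, Snx22 in 48% of KO and 67.1% of flox members, and Mki67 in 24% of KO and 24.3% of flox members; at 1000 UMIs a cell, Tlr3 was in 8% and Mki67 in 0 of the 50 KO members. Depth limited genes with few UMIs, whose ratios have wide counting intervals.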
